A study of Mus musculus with 28 samples.

Results

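The molar tooth germs of the mouse at E13 and E16 were compared, 3 days apart, by RNAseq of single teeth that the authors counted in 2 ways. The comparison takes all 14 teeth that the labels place at these stages, 7 at each, out of the 28 samples of the series. One table holds HTSeq counts for 52636 genes, and the other holds estimated counts made with salmon for 14185 genes, nearly all of them (14156) protein-coding. Because 14170 genes are listed in both tables, the same change could be measured in the same libraries under both ways of counting, and 12685 genes had enough counts for a test in both. The mice were C57BL/6JOlaHsd embryos without treatment, wild type per the study, and the labels give the ages as E13.5 and E16.5 and the tissue as a tooth germ of molar 1, without the jaw. The study names these stages bud and bell, and uses E13 and E16 for them. At E13 the 7 teeth came from 7 embryos (4 left and 3 right teeth), and at E16 from 5 embryos (4 left and 3 right), because embryos 6 and 8 gave the teeth of both sides. Each library was made from 1 tooth that was dissected with little of the surrounding tissue, and no batch is named.

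A tooth forms from an epithelium that thickens and grows into the mesenchyme below it. At the bud stage the mesenchyme has condensed around the epithelial bud and the capacity to direct tooth formation lies in it, whereas at the bell stage the epithelium has folded into the shape of the future crown and both tissues approach differentiation into the ameloblasts that secrete enamel and the odontoblasts that secrete dentin. Signals of the Hedgehog, Fgf, Wnt, Bmp, Eda, and Notch families pass between the tissues at each step, in part from the enamel knots, which are clusters of epithelial cells that have left the cell cycle.

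The libraries held between 17814073 and 27115729 HTSeq counts and between 14965319 and 24056056 salmon counts. Beyond counting error, the fits estimated a coefficient of variation between teeth of the same stage of 21.3% in HTSeq and 18.8% in salmon. The left tooth of embryo 3 at E16 stood apart from the other E16 teeth: its deviations from the stage mean correlated negatively with those of each of them (-0.59 to -0.30 in HTSeq), Malat1 held 2.35% of its counts against at most 1.41% in the others, and Actb held 0.0592% against at least 0.304%. This tooth was kept, and counts that moved by over 1.5 times without it are given both ways. The left tooth of embryo 7 at E13 was high in muscle genes, whose values are given with the other cell types. The labelled tissue was checked by its markers, of which Trp63 of the epithelium and Msx1 of the mesenchyme were present in every tooth at 83.7 CPM or more, whereas the summed markers of salivary and oral glands reached only 0.0780 to 0.508 CPM. Levels are given as CPM, counts scaled to library size with TMM within each table. In bulk tissue, fewer cells of a type and less RNA per cell cannot be told apart, and this applies to every change below.

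To find the net changes over the 3 days, E16 was compared with E13 in each table with edgeR's quasi-likelihood test with Benjamini-Hochberg adjustment, and a gene is said to have risen or fallen where the adjusted p was below 0.05 in both tables with the same sign. A gene that passed in 1 table alone is said to have done so in that table only, and a single number in parentheses after a gene is its log2 fold change (E16 over E13) in HTSeq. In the first sense 3008 genes rose (23.7% of the 12685 tested in both) and 2239 fell (17.7%), and these shares are the background for the counts of each list. By a rise or fall of at least 2-fold in both tables, 1219 genes rose and 333 fell, so that the large changes were mostly rises. The CPM of the E13 and E16 teeth did not overlap in either table for 2553 genes (20.1%), of which 1412 rose and 1115 fell by the test. The median log2 fold change of all genes tested in both was 0.0059 in HTSeq and 0.031 in salmon. Without the left E16 tooth of embryo 3, 3829 genes rose and 3228 fell, and these included 2969 of the 3008 rises and 2231 of the 2239 falls.

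The tables gave nearly the same change for most genes. To compare them, log2 CPM (with a prior count of 2) in salmon minus that in HTSeq was taken in each tooth, and its change from E13 to E16 was a median of 0.0171 in absolute size and less than 0.2 for 94.9% of the genes. Because both tables were made from the same libraries, this is a comparison of counting methods, not a second experiment. Of the genes tested in both, 405 (3.19%) were called in HTSeq only, 451 (3.56%) in salmon only, and 4 (0.0315%) in opposite directions, a number that was 16 without the left E16 tooth of embryo 3 and 2 without the left E16 tooth of embryo 6. A gene's change was taken to depend on the table where this per-tooth difference changed by at least 1 between stages and passed limma's test at an adjusted p below 0.05, which held for 48 genes (0.378%), or for 28 with the teeth of an embryo summed. A difference of any size passed for 285 genes (2.25%). Genes that depended on the table are described last.

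**Figure D1:**
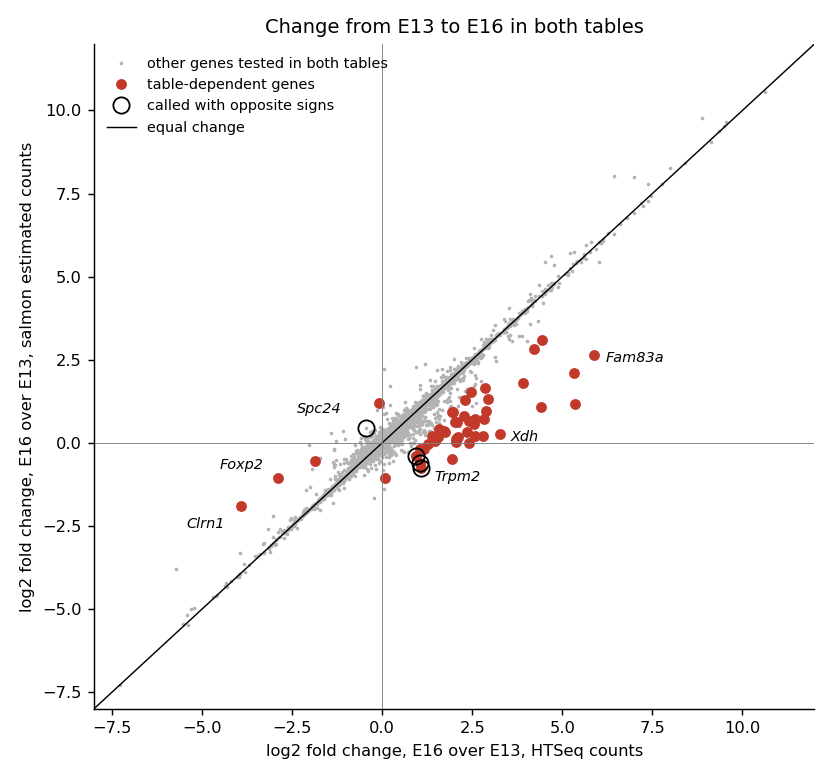
Log2 fold change from E13 to E16 of each gene tested in both tables, in HTSeq (horizontal axis) and in salmon (vertical axis). The 48 genes whose change depended on the table are drawn in red and the 4 genes called in opposite directions are circled; the red points lie mostly nearer to 0 on the salmon axis than on the HTSeq axis.

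Of the 10 largest rises, taken among genes whose stages did not overlap in either table, 6 were genes of a stratified oral epithelium. Krt4, which pairs with Krt13 in the suprabasal layers of oral lining, was between 0 and 0.571 CPM (median 0.127) at E13 and between 66.5 and 296 CPM (median 114) at E16. The E16 teeth spread widely but all lay far above E13, and the log2 fold change was 9.55 ± 0.51 (SE, edgeR adjusted p = 1.51e-10) in HTSeq and 9.65 in salmon. Krt13 went from a median of 0.384 CPM (0.138 to 1.84) at E13 to one of 531 CPM (313 to 697) at E16, for a log2 fold change of 9.49 ± 0.40 (SE, edgeR adjusted p = 1.58e-11) in HTSeq and 9.53 in salmon. They also included Ly6d (9.35), which encodes a surface protein of stratified epithelia, and Sprr3 (8.41) and Sprr1a (7.99), small proline-rich proteins of the cornified envelope. Cnfn, a gene of the same envelope, had no count in any E13 tooth in either table and was between 3.69 and 16.3 CPM (median 9.49) at E16, at least 63.2-fold higher in HTSeq and at least 60.5-fold higher in salmon if 3 counts per tooth are taken as the limit at E13. Ofcc1 had no salmon count at E13 and at most 0.0408 CPM in HTSeq, and was between 4.58 and 8.48 CPM (median 5.28) at E16 in salmon, at least 35.0-fold higher. The remaining 3 were the cytochrome P450 genes Cyp2f2 (7.45) and Cyp2t4 (7.38) and the collagenase Mmp13 (7.17).

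The 10 largest falls, chosen in the same way, were spread over blood, nerve, and mesenchyme. Hbb-y, a globin of embryonic red cells, was between 205 and 389 CPM (median 256) at E13 and between 1.0 and 2.69 CPM (median 1.55) at E16, and no E16 tooth came near any E13 tooth. Its log2 fold change was -7.29 ± 0.23 (SE, edgeR adjusted p = 7.56e-13) in HTSeq and -7.27 in salmon, and Hba-x (-3.97), the embryonic alpha-like globin, fell with it. Nefl (-4.70), the light neurofilament protein of axons, went from a median of 11 CPM (8.62 to 14.55) at E13 to one of 0.372 CPM (0.191 to 0.818) at E16. Transcription factors gave 3 of the falls, Tbx18 (-5.24), Tbx15 (-3.70), and Nr2f1 (-4.61), and the signal Wnt2 (-4.03) a further one. The others were Kcns2 (-5.40), a modifier subunit of potassium channels, Caln1 (-4.59), a calcium-binding protein, and Tmem132b (-4.30).

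The genes that the study classed by the tooth phenotype of their mutants were examined in both tables. Of the 15 progression genes, whose loss stops tooth development, 9 rose and 3 fell, against 23.7% and 17.7% of all genes, and the median log2 fold change was 0.39 in HTSeq and 0.41 in salmon. With a tooth left out, between 6 and 9 rose, and as few as 1 of the 3 signals Shh, Bmp4, and Inhba did. Msx1, Pax9, and Dicer1 fell. Among the risers were Shh, Trp63, Fgfr2, Lef1, Bmp4, Ctnna1, Runx2, and Inhba, whereas Bmpr1a and Ctnnb1 did not pass in either table and the activin receptor Acvr2a fell in HTSeq only (-0.25, edgeR adjusted p = 0.0437, against -0.21 and 0.153 in salmon). Of the 28 shape genes, whose loss alters the form of the tooth, 13 rose and 4 fell (Gas1, Evc, Pdgfra, and Bmp2), with a median of 0.35 in HTSeq and 0.36 in salmon, and 7 fell without the left E16 tooth of embryo 3. Yap1 of the shape genes passed in salmon only (-0.24, edgeR adjusted p = 0.0269).

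Of 21 tested tissue genes, which are needed for the hard tissues, 10 rose and 5 fell, with a median of 0.20 in HTSeq and 0.22 in salmon, and Bmi1 fell in HTSeq only (-0.23, edgeR adjusted p = 0.0471). Amtn, Dspp, Enam, Klk4, and Mmp20 of this class have no row in salmon and were too low to be tested in HTSeq. The double class holds genes whose loss affects the tooth only in combination with a mutation of a paralogue. Of its 10 tested genes 4 rose and 4 fell, and Gli2, the other gene of the class, is listed in HTSeq only and did not pass (0.033). No gene of these classes depended on the table by the rule above.

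**Figure D2:**
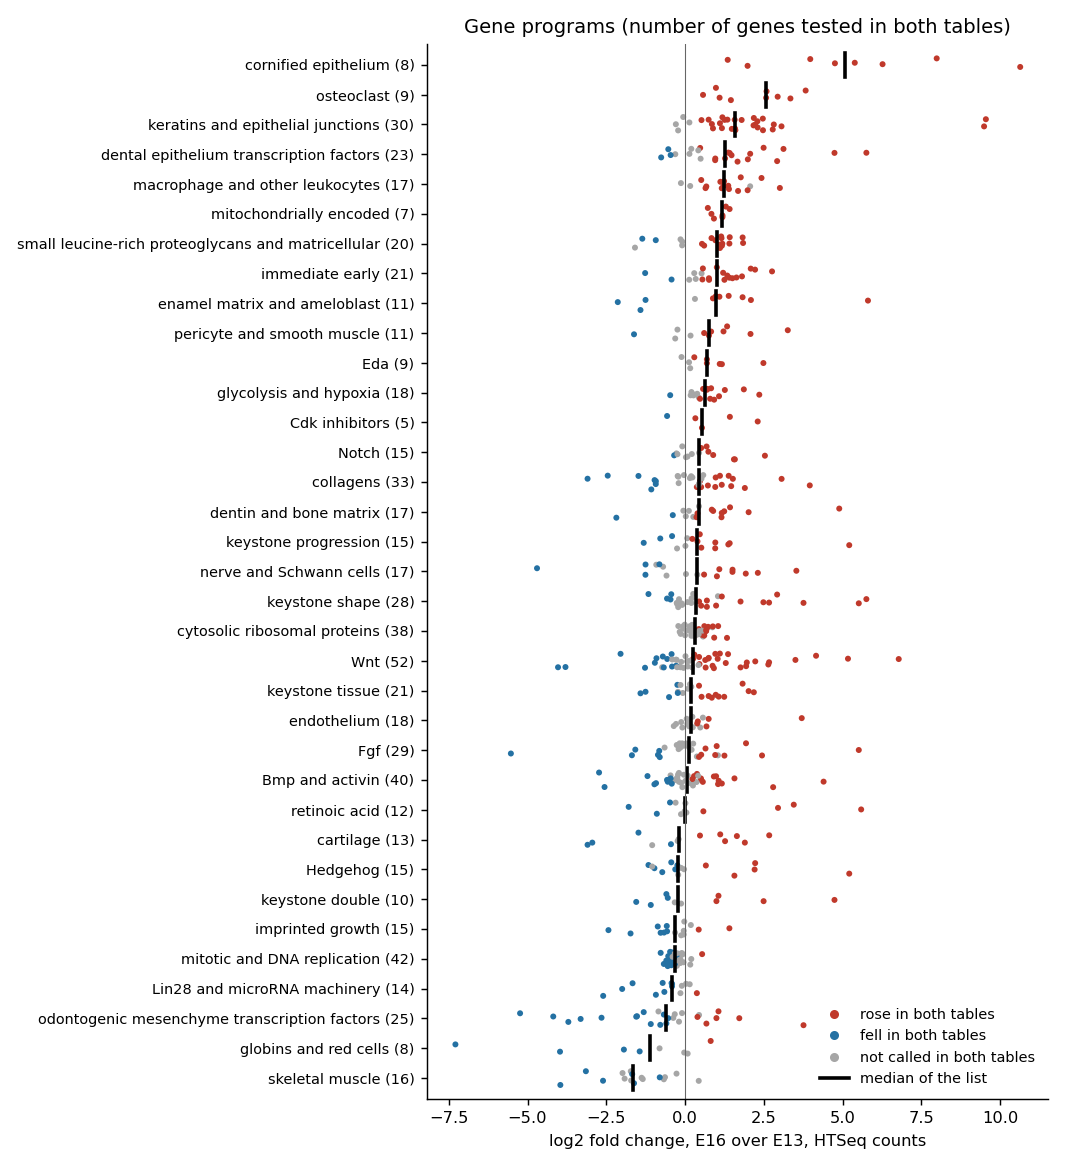
HTSeq log2 fold change from E13 to E16 (horizontal axis) of the members of each gene list with at least 5 genes tested in both tables (rows, sorted by median). Red and blue points are genes that rose or fell in both tables, grey points passed in 1 table or in none, and the black bar is the median of the list. Cornified, osteoclast, and keratin genes lie at the top and mitotic, mesenchymal, and muscle genes toward the bottom.

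Hedgehog signals reach both tissues of the tooth from the epithelium, and Ptch1, Hhip, and Gli1 are their targets as well as parts of the pathway. Shh, the ligand (chr5:28456815-28467256, minus strand, in GRCm38), was between 0.963 and 8.94 CPM (median 4.02) at E13 and between 51.6 and 203 CPM (median 172) at E16. All E16 teeth lay above all E13 teeth, and the log2 fold change was 5.21 ± 0.41 (SE, edgeR adjusted p = 2.03e-08) in HTSeq and 5.25 in salmon. Of the receptors and binding proteins 3 rose and 3 fell of 7 tested. Ptch1, the receptor that Shh relieves, was between 392.2 and 556 CPM (median 462) at E13 and between 1160.1 and 1643 CPM (median 1331) at E16, without overlap, a log2 fold change of 1.57 ± 0.11 (SE, edgeR adjusted p = 5.32e-09) in HTSeq. Hhip (2.23), which binds the ligand, rose as well. The coreceptors took the opposite course, with Gas1 (-1.16) going from a median of 194 CPM (177 to 205) at E13 to one of 90.5 CPM (46.2 to 107) at E16, and Cdon (-0.97) and Boc (-0.72) falling too. Gli1 (0.66) was the transcription factor that rose, whereas Smo, Sufu, Gli3, and Ihh did not pass in either table. In all 5 of the 15 tested Hedgehog genes rose and 6 fell, with a median of -0.22 in HTSeq and -0.19 in salmon.

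Fgfs are mitogens that the epithelium and the mesenchyme send to each other, and of 15 ligands tested 5 rose and 4 fell (33.3% and 26.7%, against 23.7% and 17.7% of all genes). Fgf3, a ligand of the dental mesenchyme and the enamel knot (chr7:144838083-144844436, plus strand), was between 0 and 1.11 CPM (median 0.169) at E13 and between 6.68 and 13.1 CPM (median 12.7) at E16, and the stages did not overlap. Its log2 fold change was 5.52 ± 0.49 (SE, edgeR adjusted p = 8.51e-08) in HTSeq and 5.43 in salmon. Fgf8, an early signal of the oral epithelium, took the reverse course and was between 1.73 and 5.61 CPM (median 3.22) at E13 and between 0 and 0.234 CPM (median 0) at E16, with a log2 fold change of -5.53 ± 0.52 (SE, edgeR adjusted p = 1.77e-07) in HTSeq and -5.45 in salmon; most E16 teeth had no count. The epithelial ligand Fgf9 (1.25) rose without overlap and the enamel knot ligand Fgf4 (2.44) rose with overlap, whereas Fgf18 (-1.69) fell from a median of 10.7 CPM (9.95 to 14.7) at E13 to one of 3.44 CPM (2.15 to 5.12) at E16. Fgf10 and Fgf20 did not pass in either table, and Fgf14 fell in HTSeq only (-0.65, edgeR adjusted p = 0.013). Of the receptors Fgfr2 (0.96) rose and the decoy receptor Fgfrl1 (-0.82) fell. Of 9 feedback targets, only the transcription factor Etv4 (1.94) rose in both tables, from a median of 10.2 CPM (6.24 to 16.9) at E13 to one of 40.1 CPM (27.9 to 51.1) at E16, whereas 4 rose and 1 fell without the left E16 tooth of embryo 3 and 2 rose without the left E13 tooth of embryo 10. Dusp6 passed in salmon only (0.39, edgeR adjusted p = 0.0267, against 0.38 and 0.0517 in HTSeq).

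Wnt genes gave the largest pathway list, with 25 risers and 12 fallers of 52 tested and a median of 0.24 in HTSeq and 0.27 in salmon. Of 16 ligands 8 rose and 4 fell. Wnt10a, a ligand of the dental epithelium (chr1:74791516-74804179, plus strand), was between 3.55 and 4.95 CPM (median 3.93) at E13 and between 10.2 and 35 CPM (median 26.1) at E16, without overlap, and its log2 fold change was 2.67 ± 0.21 (SE, edgeR adjusted p = 1.88e-08) in HTSeq and 2.69 in salmon. Wnt7a (5.17), Wnt3a (1.94), Wnt10b (1.37), and Wnt5a (0.92) also rose. Wnt2 was between 6.73 and 11.5 CPM (median 7.75) at E13 and between 0 and 1.41 CPM (median 0.386) at E16, the largest fall among the Wnt ligands tested, with a log2 fold change of -4.03 ± 0.46 (SE, edgeR adjusted p = 1.63e-06) in HTSeq and -4.04 in salmon, followed by Wnt9b (-3.79) and Wnt5b (-0.96). The secreted inhibitors had the highest median of the Wnt roles, 1.76, with 7 risers and 2 fallers of 11. Notum (3.50), which removes the lipid of Wnts, went from a median of 1.46 CPM (1.14 to 1.97) at E13 to one of 17.5 CPM (11.3 to 21.8) at E16. Wif1 (2.64), which binds Wnts, rose as well, and Sostdc1, an inhibitor of Wnts and Bmps, was between 80.2 and 114 CPM (median 94.7) at E13 and between 87.1 and 461 CPM (median 372) at E16, where only the left tooth of embryo 3 reached down into the E13 range. Dkk4, an inhibitor of the Wnt coreceptors, had 2 counts over all E13 teeth and between 0.993 and 3.12 CPM at E16.

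Of the secreted inhibitors, Sfrp2 and Frzb took the other direction. Sfrp2 was between 483 and 611 CPM (median 522) at E13 and between 34.8 and 178 CPM (median 145) at E16, a log2 fold change of -2.05 ± 0.23 (SE, edgeR adjusted p = 1.74e-06) in HTSeq, and Frzb went from a median of 266 CPM (244 to 275) at E13 to one of 119.8 CPM (33.5 to 139) at E16, both without overlap. Dkk1 has no row in salmon and rose in HTSeq (1.96), as Fzd8 (-0.83) and Axin1 (-0.33) fell there. Of 16 receptors and related surface proteins, 6 rose and 4 fell, among them Lgr6 (1.29) and Fzd4 (-0.91), and Fzd9 passed in salmon only (-0.83, edgeR adjusted p = 0.0265). Of the nuclear factors, Tcf7 (1.96) and Lef1 (0.96) rose, whereas Axin2, a feedback target of the pathway, fell (-0.41 in HTSeq and -0.39 in salmon).

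Bmps and activins carry signals from the mesenchyme and the enamel knots. Of 40 tested genes 14 rose and 9 fell, with a median of 0.048 in HTSeq and 0.070 in salmon. Inhbb, an activin subunit, was between 0.421 and 1.25 CPM (median 0.688) at E13 and between 7.87 and 19.7 CPM (median 16) at E16, without overlap, a log2 fold change of 4.40 ± 0.23 (SE, edgeR adjusted p = 1.5e-10) in HTSeq and 4.41 in salmon. Bmp3 (2.80) rose from a median of 15.9 CPM (9.52 to 23.8) at E13 to one of 114 CPM (70.8 to 146) at E16. Bmp4, a mesenchymal signal that acts on the epithelium, was between 54.3 and 62.7 CPM (median 56.5) at E13 and between 34.8 and 121 CPM (median 91.4) at E16, overlapping between stages, with a log2 fold change of 0.52 ± 0.18 (SE, edgeR adjusted p = 0.0337) in HTSeq that passed in only 4 of 14 fits with a tooth left out, and Bmp2, an enamel knot ligand, fell with overlap (-0.57 in HTSeq and -0.56 in salmon). Among inhibitors, Grem1 (-2.55) and Chrdl2 (-2.73), which bind Bmps, fell and Fst (1.17), which binds activins, rose. Bmp1 (-0.20, edgeR adjusted p = 0.047) and Id2 (-0.34, adjusted p = 0.0264) fell in HTSeq only, and Tgfbr2 rose in salmon only (0.41, adjusted p = 0.0322).

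The Eda pathway of ectodermal organs rose in part, with 6 risers and no faller of 9 tested (1 faller without the left E16 tooth of embryo 3) and a median of 0.69 in HTSeq and 0.67 in salmon. Its receptor Edar was between 2.78 and 4.81 CPM (median 3.44) at E13 and between 14.7 and 26.3 CPM (median 21.4) at E16, without overlap, a log2 fold change of 2.49 ± 0.15 (SE, edgeR adjusted p = 7.09e-10) in HTSeq and 2.48 in salmon. The ligand Eda (0.69), the receptor Tnfrsf19 (1.10), and the adaptor Edaradd (0.69) rose too, whereas Chuk, Traf6, and Ikbkg of the shared transducers did not pass in either table. Of 15 Notch genes 7 rose and 1 fell, the ligand Jag1 (-0.35). Lfng (1.55), which modifies Notch receptors, went from a median of 11.9 CPM (8.04 to 13.2) at E13 to one of 36.3 CPM (17.7 to 39.9) at E16, and Hey2 (2.54), a target, from a median of 1.87 CPM (1.31 to 2.93) at E13 to one of 11.8 CPM (8.11 to 14.8) at E16. Dll4 passed in salmon only (0.43, edgeR adjusted p = 0.0454, against 0.45 and 0.0554 in HTSeq).

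Retinoic acid is made by the Aldh1a enzymes and broken down by the Cyp26 enzymes, and the members of each group went in different directions. Cyp26c1 was between 0.138 and 1.96 CPM (median 0.576) at E13 and between 21.5 and 58.1 CPM (median 42.5) at E16, and Cyp26b1 was between 180.0 and 244 CPM (median 209.6) at E13 and between 18.4 and 80.4 CPM (median 67.2) at E16. Neither overlapped between stages, and the log2 fold change was 5.59 ± 0.37 (SE, edgeR adjusted p = 2.39e-09) for Cyp26c1 and -1.79 ± 0.21 (SE, edgeR adjusted p = 3.25e-06) for Cyp26b1 in HTSeq, with 5.68 and -1.77 in salmon. Cyp26a1 (2.95) rose with Cyp26c1. Among the enzymes of synthesis, Aldh1a3 (3.45) rose from a median of 6.51 CPM (4.92 to 8.12) at E13 to one of 70.6 CPM (39.6 to 89.1) at E16, and Aldh1a2 (-0.90) and Rdh10 (-0.48) fell. The receptor Rarb (0.58) rose, and Rara, Rarg, Crabp1, and Crabp2 did not pass in either table.

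**Figure D3:**
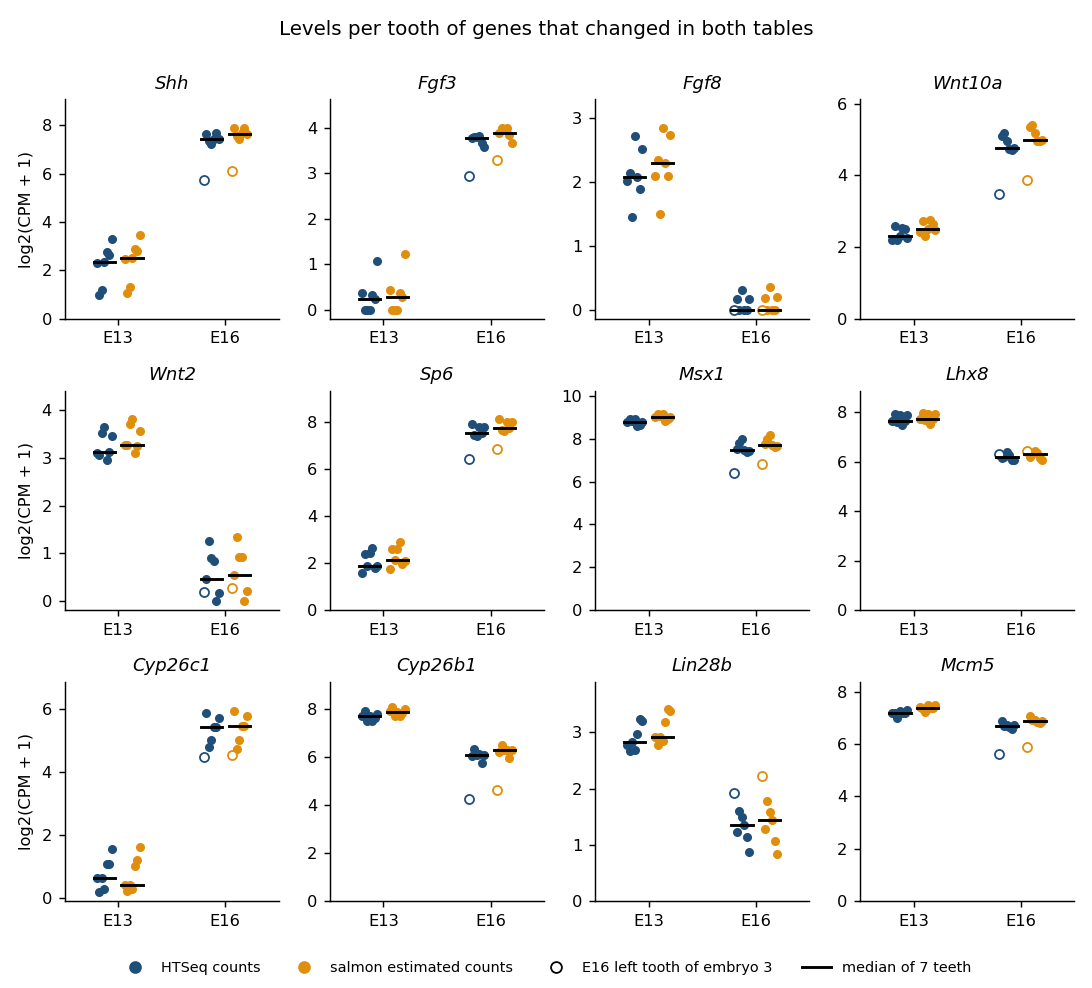
log2(CPM + 1) of 12 genes in each of the 14 teeth at E13 and E16, in HTSeq (blue) and salmon (orange), with bars at the stage medians and an open symbol for the left E16 tooth of embryo 3. Shh, Fgf3, Wnt10a, Sp6, and Cyp26c1 rise and Fgf8, Wnt2, Msx1, Lhx8, Cyp26b1, Lin28b, and Mcm5 fall with nearly the same values in both tables.

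Transcription factors of the dental epithelium rose, 15 of 23 tested with 3 fallers, and the median was 1.27 in HTSeq and 1.26 in salmon, against 0.0059 and 0.031 for all genes. Sp6, which ameloblasts and the enamel organ need (chr11:97013394-97024734, plus strand), was between 1.99 and 5.26 CPM (median 2.70) at E13 and between 84.7 and 239 CPM (median 180.5) at E16. The stages were far apart, and the log2 fold change was 5.76 ± 0.26 (SE, edgeR adjusted p = 2.74e-11) in HTSeq and 5.74 in salmon. Dlx4 (4.74), Hopx (3.13), and Foxi3 (2.92) followed, and Msx2 (3.76), a homeobox gene of both tissues, went from a median of 4.77 CPM (3.81 to 5.95) at E13 to one of 71.2 CPM (18.5 to 88.4) at E16. Trp63 (1.42), the basal factor of stratified epithelia, rose less. The 3 fallers were Pitx1 (-0.76), Sox2 (-0.53), and Tfap2c (-0.46), and Nkx2-3 passed in salmon only (0.43, edgeR adjusted p = 0.0475). Sox2 marks the epithelial stem cells of teeth, and its values overlapped between stages.

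In the mesenchyme list the direction was reversed, with 13 fallers and 6 risers of 25 tested and a median of -0.59 in HTSeq and -0.57 in salmon. Msx1, needed in the mesenchyme to pass the bud stage (chr5:37820485-37824583, minus strand), was between 384 and 494 CPM (median 446) at E13 and between 83.7 and 254 CPM (median 177) at E16. No E16 tooth reached the E13 range, and the log2 fold change was -1.31 ± 0.17 (SE, edgeR adjusted p = 6.71e-06) in HTSeq and -1.31 in salmon. Its partner Pax9 (-0.79) fell from a median of 376 CPM (338 to 444) at E13 to one of 211 CPM (152 to 269) at E16. Lhx8, a LIM homeobox factor of the oral mesenchyme, was between 179 and 244 CPM (median 201) at E13 and between 65.6 and 82.8 CPM (median 71.8) at E16, also without overlap, with a log2 fold change of -1.55 ± 0.087 (SE, edgeR adjusted p = 2.95e-10) in HTSeq. Prrx1 (-1.52) and Twist1 (-0.67), general factors of facial mesenchyme, fell with them. Fallers of over 4-fold were Tbx15 (-3.70), Tbx18 (-5.24), Alx4 (-2.65), Pax3 (-3.31), and Hand2 (-4.18), and Alx4, Pax3, and Hand2 were highest in the E13 tooth that was high in muscle genes. Without that tooth the log2 fold changes in HTSeq were -3.68 for Tbx15, -5.39 for Tbx18, -2.37 for Alx4, -2.93 for Pax3, and -3.38 for Hand2, and all 5 still passed. Msx2 (3.76), the largest rise in this list, Tfap2a (1.72), and Runx2 (0.39), the bone and odontoblast factor, rose. Barx1, Lhx6, Alx1, Prrx2, and Osr2 did not pass in either table. The Dlx genes were split, Dlx1 (-0.59) and Dlx6 (-1.09) against Dlx2 (1.06), Dlx3 (2.49), and Dlx5 (1.00).

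Keratins and junction proteins rose almost as a whole, with 26 risers and no faller of 30 tested (1 faller without the left E16 tooth of embryo 8) and a median of 1.58 in HTSeq. Of the 10 keratins 9 rose, the exception being Krt8 of simple epithelia. Krt5 was between 138 and 279.8 CPM (median 183) at E13 and between 527 and 1266 CPM (median 1015) at E16 and Krt14, its basal partner, was between 142 and 226 CPM (median 155) at E13 and between 356 and 450.4 CPM (median 383) at E16, both without overlap. Their log2 fold changes were 2.30 ± 0.19 (SE, edgeR adjusted p = 3.47e-08) and 1.17 ± 0.11 (SE, edgeR adjusted p = 2.91e-07) in HTSeq, far below those of the suprabasal Krt4 and Krt13. Krt15 (2.47) and Krt17 (2.17) lay close to Krt5. Of 20 junction genes 17 rose, among them Dsg3 (3.06), Pkp1 (2.78), and Dsc3 (2.30) of desmosomes, Cldn1 (2.82) of tight junctions, and Cdh1 (1.58) of adherens junctions, the epithelial cadherin. Perp (2.18), a desmosome protein and target of p63, went from a median of 46.5 CPM (41.2 to 57.9) at E13 to one of 219 CPM (191 to 293) at E16.

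All 8 cornified genes that could be tested in both tables rose, with a median of 5.07 in HTSeq and 5.39 in salmon, while the other 8 of the 16 have no row in salmon. Krt1 (5.39) and Krt10 (1.99), keratins of cornifying layers, rose, and Krt1 went from a median of 2.43 CPM (1.01 to 3.99) at E13 to one of 84.8 CPM (72.1 to 172) at E16. Dmkn (6.27) and Lgals7 (3.97), products of stratified epithelia, rose too, and Krtdap (5.24), Asprv1 (2.49), and Lor (1.37) rose in HTSeq. The cornified genes passed the filter on low counts through E16, where they are high, so their count says little beyond the values.

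Genes of the mineralized tissues changed unevenly. Of 11 enamel and ameloblast genes tested, 7 rose and 3 fell, with a median of 0.98 in HTSeq and 0.93 in salmon. Odam, a protein of maturing ameloblasts, was between 0 and 0.336 CPM (median 0.0407) at E13 and between 2.01 and 5.82 CPM (median 3.56) at E16, and Ambn, an enamel matrix protein, was between 4.25 and 9.63 CPM (median 6.78) at E13 and between 7.49 and 18.2 CPM (median 15.9) at E16. Only Odam was free of overlap, with a log2 fold change of 5.81 ± 0.51 (SE, edgeR adjusted p = 7.07e-08) against 0.98 ± 0.21 (SE, edgeR adjusted p = 0.00134) in HTSeq. The laminin chains Lamb3 (2.09) and Lama3 (1.83) and the collagen Col17a1 (1.39), which anchor the ameloblast to its matrix, rose without overlap. The fallers were the exchanger Slc24a4 (-2.13), Fam20a (-1.41), and the citrate carrier Slc13a5 (-1.25), genes of enamel maturation.

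Of 17 dentin and bone genes 10 rose and 2 fell (1 in 9 of the 14 fits with a tooth left out), with a median of 0.44 in HTSeq and 0.45 in salmon. Spp1, a phosphoprotein of bone and dentin, was between 0.0407 and 0.530 CPM (median 0.367) at E13 and between 2.11 and 23 CPM (median 7.84) at E16, without overlap, a log2 fold change of 4.89 ± 0.54 (SE, edgeR adjusted p = 1.18e-06) in HTSeq and 5.03 in salmon. Dmp1 (2.02), a protein of mineralizing matrix, rose too. Col1a1, a chain of type I collagen, the main collagen of dentin, was between 2025 and 2633 CPM (median 2138) at E13 and between 1078 and 6248 CPM (median 5874) at E16, where the lowest E16 value is that of the left tooth of embryo 3. Alpl (1.24) and Sparc (1.16) rose with the same overlap, and Phex, an endopeptidase of bone and dentin mineralization, fell from a median of 17.1 CPM (13.4 to 21.4) at E13 to one of 3.71 CPM (1.77 to 5.10) at E16. Omd, osteomodulin, rose in HTSeq (3.09) and is not listed in salmon.

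All 9 osteoclast genes tested in both tables rose, with a median of 2.57 in HTSeq and 1.499 in salmon. Acp5, the acid phosphatase by which osteoclasts are stained, was between 2.59 and 8.11 CPM (median 3.26) at E13 and between 24.7 and 104 CPM (median 54.2) at E16, without overlap, a log2 fold change of 3.83 ± 0.33 (SE, edgeR adjusted p = 5.67e-08) in HTSeq and 3.84 in salmon. Ctsk (2.94), the protease that digests bone collagen, Atp6v0d2 (3.35), a proton pump subunit, and Mmp9 (2.57) rose with it, as did the receptor Tnfrsf11a (1.46) and the ligand Csf1 (0.98). Ocstamp, a protein of osteoclast fusion, rose in both tables but to a different degree (2.59 in HTSeq and 0.71 in salmon) and is the member of the list that depended on the table; Dcstamp rose in HTSeq (2.82) and is not listed in salmon. Tnfsf11, the ligand of Tnfrsf11a, did not pass in HTSeq (0.51) and is not listed in salmon.

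Of 33 collagen genes tested 14 rose (42.4%, against 23.7% of all genes) and 7 fell (21.2%, against 17.7%). Col2a1, the cartilage collagen, was between 139 and 167 CPM (median 154) at E13 and between 6.49 and 23.4 CPM (median 19) at E16, without overlap, a log2 fold change of -3.09 ± 0.19 (SE, edgeR adjusted p = 8.96e-10) in HTSeq and -3.08 in salmon, and Col25a1 (-2.45) fell with it. Col5a3 (3.06) of fibrils and Col9a3 (1.90) of cartilage rose, and Col6a1 passed in salmon only (0.53, edgeR adjusted p = 0.0382). Col7a1, the anchoring fibril collagen, was between 63.5 and 104 CPM (median 74.1) at E13 and between 242 and 315 CPM (median 269.5) at E16 in HTSeq (1.78) and is not listed in salmon, and Col1a2, the partner of Col1a1, is listed in HTSeq alone and did not pass (0.24). Small leucine-rich proteoglycans and matricellular proteins, 14 of 20, mostly rose, with 2 fallers (4 without the left E16 tooth of embryo 3) and a median of 1.02 in HTSeq and 1.05 in salmon. Dcn (1.41) went from a median of 96.2 CPM (81 to 109) at E13 to one of 246 CPM (184 to 342) at E16 and Lum (0.96) and Sparcl1 (1.83) rose, while Tnc (-0.93), a matrix protein of condensed mesenchyme, went from a median of 453 CPM (424 to 517) at E13 to one of 226 CPM (114 to 336) at E16 and Tnn (-1.36) fell too. Ogn (2.48) and Aspn (1.95) rose in HTSeq and are not listed in salmon, and Kera fell in HTSeq only (-1.59, edgeR adjusted p = 0.0487).

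Of 42 genes of DNA replication and mitosis 22 fell and 1 rose, and the median was -0.33 in HTSeq and -0.26 in salmon. The falls were small and their count depended on single teeth: 34 fell without the left E16 tooth of embryo 3, and between 19 and 34 over all fits with a tooth left out. Of 17 S phase genes 12 fell, and of 25 mitosis genes 10 fell and 1 rose, Ube2c (0.54), a ubiquitin-conjugating enzyme of mitotic exit, and without the left E16 tooth of embryo 3 20 mitosis genes fell. Ube2c did not pass in both tables without any one of 6 teeth (left of embryos 2 and 3 and right of embryo 5 at E13, both of embryo 6 and right of embryo 8 at E16). Mcm5, a subunit of the replicative helicase, was between 127 and 157 CPM (median 144) at E13 and between 48.7 and 117 CPM (median 103) at E16, without overlap, a log2 fold change of -0.60 ± 0.14 (SE, edgeR adjusted p = 0.00199) in HTSeq and -0.60 in salmon. Mcm6 (-0.46), Mcm7 (-0.55), Mcm2 (-0.59), Mcm3 (-0.48), and Mcm4 (-0.48), the other subunits, fell by like amounts, as did Ccne1 (-0.67), the cyclin of S phase entry, and Cdc20 (-0.77), an activator of mitotic exit. Tyms, Kif11, Cdk1, Ttk, Prc1, and Cenpe fell in HTSeq only, with -0.39 for Tyms against -0.20 in salmon, and Mki67, Pcna, Plk1, and Ccna2 did not pass in either table.

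Because the helicase genes moved together and are classic targets of E2F factors, the 250 bases before the start sites of the list were searched for the E2F-type letters TTTCCCGC, TTTCGCGC, TTTGCCGC, and TTTGGCGC on both strands, in RefSeq windows of GRCm38.p6. Of the 27025 genes with a window 583 (2.16%) held one. Windows were matched for 17 of the fallers, of which 4 held one (Cdc6, Mcm5, Mcm6, and Mcm7), and for 16 of the other tested genes of the list, of which 1 did (Cdk1). The letters CCAAT, on either strand, were found for 37.5% of all genes, for 12 of the 17 fallers, and for 13 of the 16 others. The split into fallers and others depended on single teeth, since 22 genes of the list fell with all teeth and 34 without the left E16 tooth of embryo 3. Cdk1, Kif11, Ttk, Prc1, and Cenpe, counted among the others, fell in HTSeq only. The windows of the helicase genes Mcm2 and Mcm3, which also fell, held no E2F-type letters and are not shown. Those of Mcm5, Mcm6, and Mcm7 are shown from 5′ to 3′ on the strand of the gene, ending at the base before the start. The E2F-type letters are in capitals, and overlapping matches run together.
Mcm5, chr8:75109259-75109508, plus strand: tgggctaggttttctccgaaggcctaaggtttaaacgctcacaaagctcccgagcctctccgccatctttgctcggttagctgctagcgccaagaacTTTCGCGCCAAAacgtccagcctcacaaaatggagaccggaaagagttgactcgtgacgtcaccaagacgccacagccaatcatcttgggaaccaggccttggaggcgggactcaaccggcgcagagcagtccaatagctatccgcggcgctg
Mcm6, chr1:128359706-128359955, minus strand: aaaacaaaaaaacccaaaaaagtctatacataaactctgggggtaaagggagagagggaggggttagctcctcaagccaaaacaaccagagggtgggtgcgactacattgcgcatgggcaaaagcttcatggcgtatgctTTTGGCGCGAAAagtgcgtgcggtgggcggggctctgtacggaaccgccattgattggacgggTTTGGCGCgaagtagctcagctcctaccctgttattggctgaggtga
Mcm7, chr5:138171884-138172133, minus strand: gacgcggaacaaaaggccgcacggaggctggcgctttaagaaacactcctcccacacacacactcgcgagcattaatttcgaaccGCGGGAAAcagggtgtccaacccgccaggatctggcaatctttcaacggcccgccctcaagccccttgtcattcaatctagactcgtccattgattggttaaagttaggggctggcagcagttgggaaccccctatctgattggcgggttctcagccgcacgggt
Mcm5 holds 2 overlapping matches, which begin 153 and 149 bases before the start, Mcm6 holds 3, which begin 110, 106, and 47 bases before it, and Mcm7 holds 1, which begins 165 bases before it. A further Mcm7 start has a window (chr5:138171267-138171516) without a match. A match here is a run of letters and no evidence of binding.

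Of the inhibitors of cyclin-dependent kinases, 4 of 5 rose and 1 fell. Cdkn1a, the p21 protein of enamel knots and of cells that stop dividing, was between 3.30 and 8.93 CPM (median 3.93) at E13 and between 14.4 and 31 CPM (median 22.9) at E16 in HTSeq, without overlap, a log2 fold change of 2.31 ± 0.22 (SE, edgeR adjusted p = 1.66e-07), but between 14.6 and 23.1 CPM (median 17) at E13 and between 35.5 and 50.3 CPM (median 42.8) at E16 in salmon, a log2 fold change of 1.30 ± 0.11 (SE, edgeR adjusted p = 3.99e-08). The gene rose in both tables and the size of its rise depended on the table. Cdkn2b (1.42), Cdkn2c (0.54), and Cdkn1b (0.33) rose with overlap, and Cdkn1c (-0.57), the imprinted p57, fell with overlap.

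Lin28 proteins keep embryonic cells in an early state by holding back let-7 microRNAs, and of 14 genes of Lin28 and the microRNA machinery 9 fell and 1 rose, with a median of -0.42 in HTSeq and -0.40 in salmon. Lin28b was between 5.32 and 8.39 CPM (median 6.10) at E13 and between 0.827 and 2.77 CPM (median 1.55) at E16, without overlap, a log2 fold change of -1.996 ± 0.22 (SE, edgeR adjusted p = 1.23e-06) in HTSeq and -1.996 in salmon. Targets of let-7 fell with it, Igf2bp1 (-1.67), Hmga2 (-0.93), Igf2bp3 (-0.71), and Trim71 (-2.60), and Igf2bp1 went from a median of 235 CPM (217 to 254) at E13 to one of 76.7 CPM (56.3 to 89.3) at E16. Of the microRNA enzymes Dicer1 (-0.41), Tarbp2 (-0.66), and the exporter Xpo5 (-0.41) fell, Ago4 (0.38) rose, and Drosha, Ago1, Ago2, and Ago3 did not pass in either table. Dgcr8 (-0.37) fell in HTSeq and is not listed in salmon.

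Of 15 imprinted genes of growth 7 fell and 2 rose. Dlk1, a Notch-like protein of immature cells, was between 151 and 319 CPM (median 196) at E13 and between 19.1 and 107 CPM (median 59.3) at E16, without overlap, a log2 fold change of -1.73 ± 0.26 (SE, edgeR adjusted p = 3.63e-05) in HTSeq and -1.73 in salmon, and Rtl1 (-2.43), its neighbor, Slc38a4 (-0.87), and Grb10 (-0.77) fell as well. Dcn (1.41) and Zim1 (0.43) were the risers. Peg10 was between 422 and 742 CPM (median 484) at E13 and between 17.84 and 114 CPM (median 102) at E16 and Nnat was between 131 and 237 CPM (median 164) at E13 and between 35 and 77.8 CPM (median 63.5) at E16 in HTSeq, both falls without overlap, and neither is listed in salmon. Igf2 and the noncoding H19 (0.0074), which is not listed in salmon, did not pass.

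Of 18 glycolysis and hypoxia genes 11 rose and 1 fell, with a median of 0.64 in HTSeq and 0.66 in salmon. Pfkp (1.87), a phosphofructokinase, went from a median of 9.58 CPM (8.58 to 10.4) at E13 to one of 35 CPM (29.8 to 39.3) at E16, and Ndrg1 (2.36) and Pdk1 (0.80), which hypoxia induces, rose too, while Pfkm (-0.47) fell and Ankrd37 passed in salmon only (0.52, edgeR adjusted p = 0.0203). Gapdh, Pgk1, and Tpi1 are not listed in salmon and rose in HTSeq (0.53, 0.44, and 0.27), and Slc2a3 (-0.85) fell there. Of 21 immediate early genes, which cells switch on within minutes of a stimulus, 15 rose and 2 fell, with a median of 1.01. Egr1 was between 5.75 and 13.1 CPM (median 9.64) at E13 and between 26.8 and 64.1 CPM (median 39.8) at E16, without overlap, and Fosb (2.76), Egr3 (2.09), and Fos (1.81) rose with it, while Nr4a3 (-1.27) and Klf4 (-0.43) fell.

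All 7 tested mitochondrially encoded genes rose, each with overlap between stages, with mt-Nd6 (1.41), mt-Nd1 (1.30), mt-Cytb (1.19), and mt-Co1 (0.72) as examples. Of 38 ribosomal protein genes that could be tested, 14 rose, between 8 and 20 with a tooth left out (8 without the right E16 tooth of embryo 6, and 9 without the left E13 tooth of embryo 3 or 10 or the right E16 tooth of embryo 8), and none fell, though 5 fell without the left E16 tooth of embryo 3. Much of the list could not be compared, since 40 of its 78 genes are not listed in salmon, and 7 of the 38 passed in 1 table only. Rpl23a rose in HTSeq (0.87, edgeR adjusted p = 0.00602) and not in salmon (0.15, 0.562). Rpl15, Rpl27, and Rpl39 were among those that passed in salmon only (0.45, 0.60, and 0.85), and Rpl3 (-0.21) and Rps12 (0.43) in HTSeq only.

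To see which other cells the teeth held, marker lists were examined. Macrophage and other leukocyte genes rose, 14 of 17 with no faller and a median of 1.24 in HTSeq and 1.23 in salmon. Csf1r, the receptor that macrophages need, was between 9.35 and 18.4 CPM (median 11.2) at E13 and between 19.8 and 54.9 CPM (median 39.1) at E16, without overlap, a log2 fold change of 1.68 ± 0.20 (SE, edgeR adjusted p = 3.2e-06) in HTSeq. Tyrobp (2.43) of myeloid cells and Cpa3 (3.01) of mast cells rose, Lyz2 (1.41), Cd68 (1.32), and Fcgr3 (1.78) rose in HTSeq and are not listed in salmon, and Ms4a7 rose in HTSeq only (2.07 in HTSeq and 0.64 in salmon, edgeR adjusted p = 0.0611 in salmon) and depended on the table. Of 18 endothelial genes 5 rose (27.8%, against 23.7% of all genes) and none fell, with 9 risers without the left E16 tooth of embryo 3 and 3 without any one of 6 other teeth (left of embryos 2 and 10 and right of embryo 5 at E13, left of embryos 5 and 6 and right of embryo 8 at E16). Lyve1 (3.70) of lymphatic vessels and macrophages went from a median of 0.366 CPM (0.0847 to 1.36) at E13 to one of 5.48 CPM (2.53 to 9.68) at E16, and Cdh5, Kdr, Tek, and Vwf did not pass in either table. Pecam1 rose in HTSeq (0.54) and is not listed in salmon. Pericyte and smooth muscle genes gave 7 risers and 1 faller of 11 (2 fallers without the left E16 tooth of embryo 3 and none without the left E13 tooth of embryo 7), among the risers Kcnj8, a potassium channel of pericytes, from a median of 3.39 CPM (1.32 to 4.49) at E13 to one of 33.5 CPM (12.2 to 37.2) at E16, its partner Abcc9 (2.08), and Tagln (1.34).

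Of 8 red cell genes tested 4 fell, the embryonic globins Hbb-y (-7.29) and Hba-x (-3.97), the membrane protein Epb42 (-1.94), and the band 3 anion exchanger Slc4a1 (-1.44), and 1 rose, the transferrin receptor Tfrc (0.81), which other cells use too. The adult globins are listed in HTSeq alone, where Hbb-bs (3.25) and Hbb-bt (0.57) rose and Hba-a1 (0.48) and Hba-a2 (-0.014) did not pass. Between the members of each pair, 51% to 83% of 84-base stretches are shared, so their counts are uncertain.

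Nerve genes went in both directions, among neuron genes and among glial genes alike. Nefl and, in HTSeq, Nefm (-3.19) fell, whereas Snap25 (1.93) and Stmn2 (1.01) of axons and synapses, Tubb3 (1.51), and the sodium channel Scn9a (2.31) of sensory axons rose. Of the glial genes S100b (3.53) and the myelin gene Mbp (1.09) rose, whereas Sox10 (-0.81), the factor of neural crest and glia, fell. In all 8 of 17 nerve and Schwann cell genes rose and 4 fell.

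Muscle markers were high in 1 library at E13. Their summed level in HTSeq was 1660 CPM in the left tooth of embryo 7 at E13 and 339 CPM in the right tooth of embryo 9, against 121 to 181 CPM in the other E13 teeth and 129 to 318 CPM at E16. Of 16 muscle genes 6 fell and none rose with all teeth, 3 fell and 1 rose without the left tooth of embryo 7, and 1 rose without the left E16 tooth of embryo 3. Without the left E13 tooth of embryo 7, Neb (-0.38, edgeR adjusted p = 0.412) and Myh7 (-0.78) no longer passed in HTSeq. The early muscle factor Myod1 (-3.16) still did. Tpm2 passed in salmon only (0.45, edgeR adjusted p = 0.0438).

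Of 13 cartilage genes 6 rose and 4 fell, in no common direction: Col2a1 (-3.09) and Cnmd (-2.94) fell and Acan (2.67), Sox5 (1.65), Sox9 (1.27), and Hapln1 (1.12) rose. Of the melanocyte list Mitf (1.27) and Kit (0.65) rose, which other cells use as well, and the pigment enzyme Tyr had no count in most teeth in HTSeq (at most 0.117 CPM). In salmon Tyr had medians of 39.0 CPM at E13 and 36.3 CPM at E16.

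The 48 genes whose change depended on the table are described here by their levels. The rule follows the ratio of salmon to HTSeq from stage to stage, so the mean ratio is not independent of it. Each had a higher CPM in salmon than in HTSeq, which holds for 97.9% of all genes tested, and for 40 of them (83.3%) it was at least 2-fold higher, which holds for 5.51% of all. The fold change was nearer to 0 in salmon for 46 (95.8%, against 53.1% of all genes). Exons of 16 of the 48 (33.3%) overlapped those of another gene, against 35.7% of all genes, and 1 gene had at least 10% of its 84-base stretches in common with another gene (2.08% against 3.47%).

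**Figure D4:**
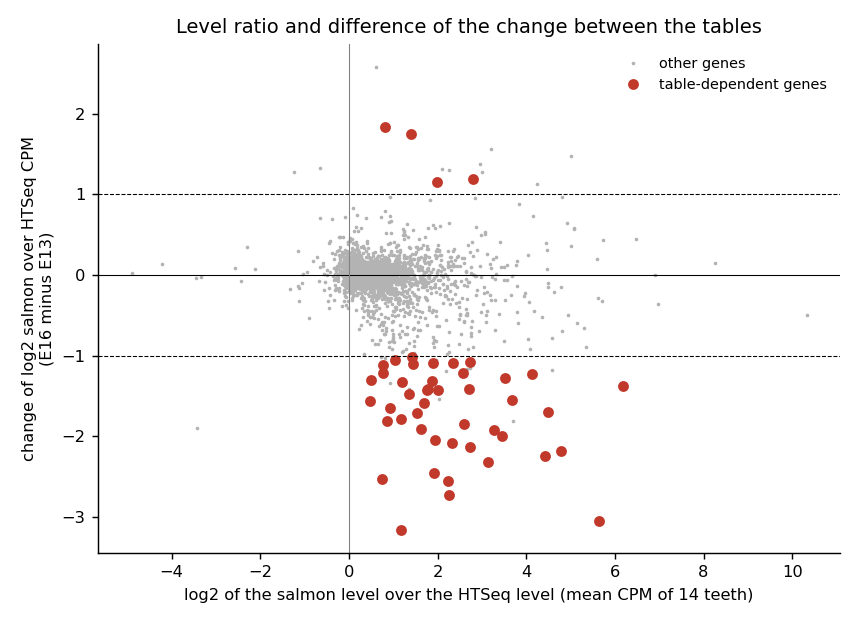
Change from E13 to E16 of the log2 ratio of salmon to HTSeq CPM (vertical axis) against the log2 ratio of the mean levels over all teeth (horizontal axis) for the genes tested in both tables, with dashed lines at changes of 1 and -1. The 48 genes that depended on the table (red) lie toward high ratios, and both axes are made from the same ratio.

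In most of these genes the counts that salmon assigned beyond those of HTSeq were within 2-fold between the stages, as in other genes with many such counts. The extra CPM were present at both stages for all 48 genes, were within 2-fold between the stages for 44 (91.7%), and changed by a median of -0.17 on the log2 scale. Of the 699 genes with at least 2 times as many CPM in salmon as in HTSeq, 666 (95.3%) were within 2-fold. The extra counts come from the same levels whose ratio the rule follows, so they are not independent of it. Extra counts within 2-fold can still differ between the stages, and the source of the extra counts was not tested. Of the 48, 22 passed in both tables in the same direction (20 rose and 2 fell), 21 passed in HTSeq only, 2 in salmon only, and 3 in opposite directions, and 36 depended on the table in each of the 14 fits with a tooth left out.

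Xdh, xanthine dehydrogenase (chr17:73883895-73950196, minus strand), rose in one table and not in the other. In HTSeq it was between 0 and 0.734 CPM (median 0.285) at E13 and between 1.97 and 3.77 CPM (median 2.86) at E16, without overlap, and rose by 3.28 ± 0.43 (SE, edgeR adjusted p = 7.95e-06) on the log2 scale. In salmon it was between 61.9 and 85.8 CPM (median 72.6) at E13 and between 68.1 and 135 CPM (median 83) at E16, with a log2 fold change of 0.27 ± 0.13 (SE, edgeR adjusted p = 0.107), which did not pass. Foxp2, a forkhead transcription factor (chr6:14901349-15441977, plus strand), was between 17.9 and 41.7 CPM (median 33.2) at E13 and between 3.20 and 5.59 CPM (median 3.62) at E16 in HTSeq and between 48.2 and 76 CPM (median 67.9) at E13 and between 21.3 and 49.1 CPM (median 27.9) at E16 in salmon. It fell in both, with log2 fold changes of -2.90 ± 0.20 (SE, edgeR adjusted p = 3.02e-09) in HTSeq and -1.06 ± 0.16 (SE, edgeR adjusted p = 4.23e-05) in salmon. By the per-tooth difference that the rule uses, Trpm1, a cation channel (4.42 in HTSeq and 1.09 in salmon), stood first with 3.16 in absolute size and Xdh second with 3.04, and Fam83a (5.89 in HTSeq and 2.64 in salmon) had 2.52.

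Of the 48, 11 rose at least 4-fold in HTSeq and did not pass in salmon, where their log2 fold changes were between 0.0031 and 0.67, and 6 of the 11 had at least 1 CPM in both tables. Besides Xdh these 6 were Nphs1, the slit diaphragm protein nephrin (2.81 in HTSeq and 0.20 in salmon), Abcb4, a phospholipid transporter (2.59 in HTSeq and 0.19 in salmon), Cpa6, a carboxypeptidase (2.08 in HTSeq and 0.16 in salmon), and the leukocyte genes Selplg (2.04 in HTSeq and 0.012 in salmon) and Cd84 (2.06 in HTSeq and 0.12 in salmon). Alpk2, Ocstamp, Megf11, Tgm3, and Ermn rose by at least 2.59 in HTSeq and by 0.71 to 1.81 in salmon. Clrn1 fell, like Foxp2, by less in salmon (-3.93 in HTSeq and -1.91 in salmon). In the opposite pattern, 2 genes passed in salmon only, Hsd3b7 (-0.081 in HTSeq and 1.19 in salmon) and Spag1 (0.067 in HTSeq and -1.04 in salmon), both named after their values were seen. Of the 792 genes of the lists, 603 were tested in both tables and only Ocstamp, Cdkn1a, and Ms4a7 depended on the table.

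**Figure D5:**
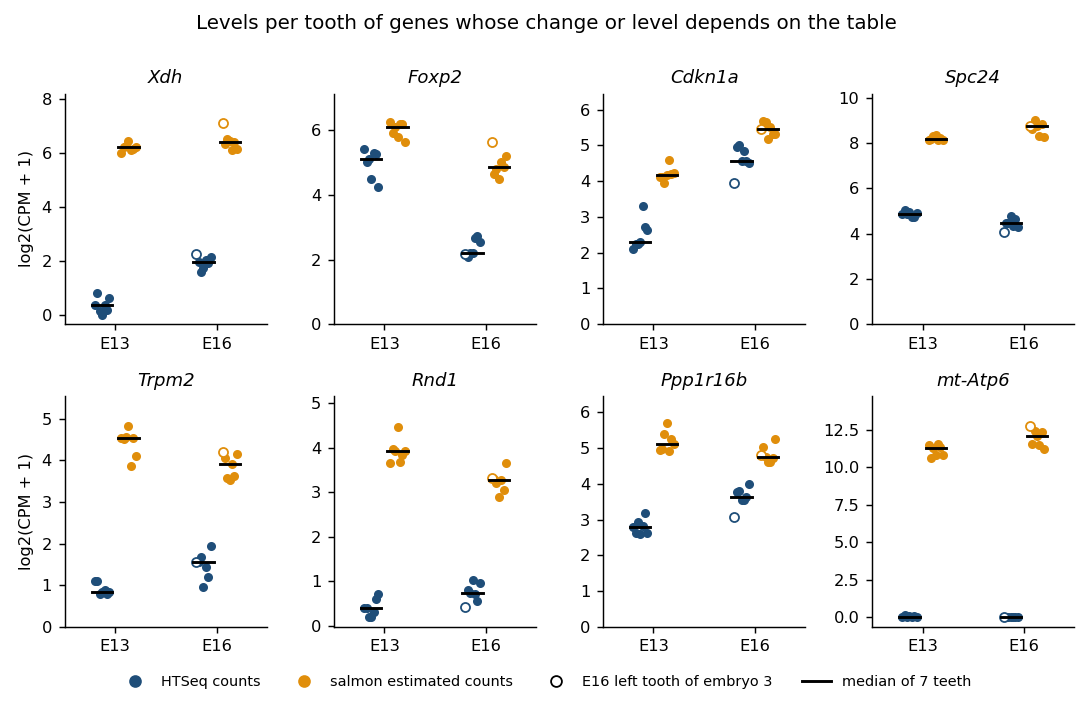
log2(CPM + 1) of 8 genes in each tooth at E13 and E16, in HTSeq (blue) and salmon (orange), with bars at the stage medians and an open symbol for the left E16 tooth of embryo 3. Xdh, Foxp2, and Cdkn1a change in HTSeq more than in salmon, Spc24, Trpm2, Rnd1, and Ppp1r16b pass in opposite directions, and mt-Atp6 is near 0 in HTSeq alone.

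In each of the 4 genes that passed in opposite directions the level was higher in salmon than in HTSeq. Spc24, a kinetochore protein (chr9:21755442-21760303, minus strand), was between 25.6 and 32.3 CPM (median 28.6) at E13 and between 15.8 and 26.6 CPM (median 21.1) at E16 in HTSeq and between 285 and 333 CPM (median 292) at E13 and between 308 and 516 CPM (median 432) at E16 in salmon. The log2 fold change was -0.45 ± 0.10 (SE, edgeR adjusted p = 0.00216) in HTSeq and 0.45 ± 0.10 (SE, edgeR adjusted p = 0.002) in salmon, which differ by less than 1. Trpm2, a cation channel (chr10:77907722-77970563, minus strand), was between 0.720 and 1.15 CPM (median 0.795) at E13 and between 0.935 and 2.85 CPM (median 1.96) at E16 in HTSeq (1.05) and between 13.7 and 27.5 CPM (median 22.2) at E13 and between 10.5 and 17.5 CPM (median 14.1) at E16 in salmon (-0.60). Rnd1, a small GTPase (chr15:98663421-98677461, minus strand), was between 0.140 and 0.635 CPM (median 0.321) at E13 and between 0.334 and 1.05 CPM (median 0.668) at E16 in HTSeq (1.07) and between 11.7 and 21.2 CPM (median 14.3) at E13 and between 6.49 and 11.7 CPM (median 8.65) at E16 in salmon (-0.75). Ppp1r16b, a phosphatase subunit (chr2:158665398-158766334, plus strand), was between 5.10 and 8.005 CPM (median 5.94) at E13 and between 7.39 and 14.9 CPM (median 11.5) at E16 in HTSeq (0.94) and between 29.5 and 51.1 CPM (median 33.5) at E13 and between 23.2 and 37.2 CPM (median 26) at E16 in salmon (-0.38). In each of these 4 genes the stages overlapped in both tables. The mean extra CPM in salmon went from 220 at E13 to 314 at E16 for Spc24 and from 16.4 to 9.42 for Trpm2. For Rnd1 the extra CPM went from 11.7 to 6.36 and for Ppp1r16b from 23.9 to 11.2. With a tooth left out, the HTSeq call of Rnd1 held in 9 of 14 fits and the salmon call of Ppp1r16b in 7 of 14.

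The tables also differed in the genes to which they gave counts at all. Of the 14170 genes listed in both, 126 had a mean of at least 10 CPM in salmon and less than 1 CPM in HTSeq, and none showed the reverse. Olfactory receptor genes made up 48 of them, vomeronasal receptor genes 4, and mitochondrially encoded genes 5. In salmon 26 of the 126 passed (20.6%, against 43.9% of all genes tested there), and 103 had a log2 fold change within 0.5 of 0. mt-Atp6, a subunit of the ATP synthase, had a mean of 0.0159 CPM in HTSeq and 3275 CPM in salmon, and mt-Co3, an oxidase subunit, 0 and 1835 CPM. Genes outside the mitochondrion included Ccnb1ip1 (0.0147 and 2459 CPM), Tmem72 (0.126 and 1378 CPM), and the olfactory receptor Olfr639 (0.0101 and 529.9 CPM). Only 19 of the 126 had enough counts for a test in HTSeq, where 5 passed, and what salmon counted for these genes was not tested.

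Conversely, 696 of the 2415 genes that changed at least 2-fold in HTSeq (13.2% of 18343 tested) have no row in salmon. A like share of all 18343 has none, since 12685 were tested in salmon too and 86 more are listed there untested. Of the 696, 202 are protein-coding, 172 of them risers and 30 fallers. Rises also outnumbered falls among the genes that changed at least 2-fold in both tables (1219 and 333). Those with the highest levels included genes of the programs above, Peg10, Col7a1, Aspn, Nnat, Ogn, and Krt6a, a keratin of stratified epithelia that was between 3.17 and 8.85 CPM (median 6.36) at E13 and between 151 and 285 CPM (median 187) at E16 (4.93). The others were the ribosomal protein genes Rpl38 (1.31) and Rpl36 (1.09), Dock10 (1.61), an exchange factor, and Gm10800 (2.31). No second count is at hand for these genes, and their change rests on the HTSeq table.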

How the data were processed

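Molar tooth germs of E13 (7 teeth) and E16 (7 teeth) were measured by RNAseq with the Ovation Mouse Universal kit, 1 library per tooth. The deposited HTSeq counts are whole numbers per gene without normalization, which the authors made from reads of 84 bp after quality filtering (FastQC, AfterQC, Trimmomatic) and STAR alignment to GRCm38 with Ensembl release 90. The second deposited table of the authors holds estimated counts per gene, for which the submitters' processing notes name Salmon 0.99.0. Its index, the choice of its 14185 genes, and the strand setting of either table are not given in the sources used here. Estimated counts were rounded to whole numbers. One E13 tooth is headed with an X for the embryo in the HTSeq table and was read as embryo 10, the only E13 tooth without a column; its deviations from the stage mean correlated by 0.906 between the tables, against at most 0.417 for any tooth with another tooth. No column of the 14 teeth was unused (0 columns), and the E14 and E15 teeth were not compared here.

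In each table, genes were filtered with filterByExpr, scaled with TMM, and tested with the quasi-likelihood test of edgeR 4.0.16 in R 4.3.3 (18343 genes in HTSeq, 13135 in salmon), with Benjamini-Hochberg adjustment at 0.05. For the difference between tables, log2 CPM (prior count of 2) in salmon minus HTSeq was taken per tooth and compared between stages with robust limma 3.58.1, and a gene was called with an adjusted p below 0.05 and a difference of at least 1. Names, coordinates, and overlaps came from the GENCODE annotation of GRCm38, stretches of 84 bases from its transcripts, and promoter windows of 250 bases from RefSeq (GRCm38.p6). Tables and figures were made with numpy 2.4.6, pandas 2.3.3, and matplotlib 3.10.9 under Python 3.11.15. The fits were tested on simulated data.

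The 37 lists, their 792 genes, and the comparison itself were chosen with earlier results of these data known. The genes named are the 10 largest rises and falls called in both tables without overlap of the stages and with at least 5 CPM in the higher stage, ranked by the smaller fold change. To these were added up to 4 members of each role in a list with the largest change, members called in 1 table, dependent on the table, or listed in 1 table, and the 15 genes of at least 1 CPM with the largest difference between tables. The remaining names are genes called in opposite directions, the 10 protein-coding genes with the highest level that changed at least 2-fold in HTSeq and have no row in salmon, and genes that the study names. Not every member that qualifies is named, and lists are given by their counts. Some members are not reported here. Genes of at least 10 CPM in salmon and under 1 CPM in HTSeq were singled out after their values were seen. The p-values measure the spread between teeth, and 4 of the E16 teeth share 2 embryos.

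Alternatives were DESeq2 (version 1.42.0) and its size factors, genes with any count, all libraries of each table, genes listed in both tables, teeth of an embryo summed, side as a factor, the embryo number as a block, another prior count, an interaction in edgeR, fold limits, and each tooth left out.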

Additional observations from a re-analysis of the deposited data

Results flagged for a closer look

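The lowest or highest tooth of a stage was compared with the others by Dixon's ratio, in 123 sets of 7 teeth with a stage mean of at least 1 CPM for gene values, given here as log2(CPM + 1). In 17 sets (13.8%) it stood apart, where chance gives about 1 in 20, and 10 of the 17 came from the left E16 tooth of embryo 3.

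This tooth was the highest in salmon for Xdh at 7.09 (others 6.11 to 6.52), Nphs1 at 3.27 (2.29 to 2.65), Cd84 at 4.99 (3.72 to 4.18), Cpa6 at 6.44 (5.49 to 5.72), Clrn1 at 3.01 (0.977 to 1.62), Megf11 at 5.04 (3.91 to 4.38), and Ofcc1 at 3.24 (2.48 to 2.80). All but Ofcc1 are genes whose change depended on the table. Of its HTSeq counts, Malat1 held 2.35% (others 1.01% to 1.41%), Actb 0.0592% (0.304% to 0.420%), and Col1a1 0.127% (0.453% to 0.627%). Whether the state of its RNA takes part in the changes that depend on the table was not tested. All 48 such genes were also called without this tooth, in a fit that does not measure the state of RNA in any tooth.

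The right E16 tooth of embryo 7 had 68.0% of its HTSeq counts on genes listed in salmon (others 77.1% to 83.1%) and 11.4% on Gm42418, which overlaps a ribosomal RNA repeat (1.31% to 3.27%), and it was lowest for Selplg in salmon at 3.09 (3.31 to 3.47). At E13, the left tooth of embryo 2 was lowest for Tbx15, at 5.91 in HTSeq (6.31 to 6.56) and 6.05 in salmon (6.44 to 6.67). The left tooth of embryo 10 was lowest for Abcb4 in salmon at 4.28 (4.83 to 5.06), and the right tooth of embryo 5 was highest for Rnd1 in salmon at 4.47 (3.66 to 3.97).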

How the results depend on the processing

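The counts of genes called in HTSeq (7309), called in salmon (5765), risen in both (3008), fallen in both (2239), dependent on the table (48), and opposite (4) stayed within 1.5 times of these values under DESeq2, its size factors, genes with any count, all libraries, genes listed in both tables, and side as a factor, and no result reversed. With the embryo number as a replicate block the counts were 2847, 2460, 1354, 766, 6, and 0, but teeth of both stages that share a number (embryos 3, 5, and 7) are of different embryos. Their deviations correlated by 0.106, 0.0730, and -0.137 in HTSeq, and 4 of these 6 teeth correlated best, among the 6, with the tooth of their own number. With a fold change of at least 2 they were 2415 in HTSeq, 1649 in salmon, 1219 risen, 333 fallen, and 0 opposite.

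Genes dependent on the table numbered 28 with the teeth of an embryo summed, 86 for a difference of at least 1.5-fold, 12 for at least 4-fold, and 55 with an interaction in edgeR. With a tooth left out, 6677 to 9638 genes were called in HTSeq, 5288 to 7599 in salmon, 2810 to 3829 rose, 1947 to 3228 fell, 42 to 58 depended on the table, and 2 to 16 were opposite. The highest values of all but the 58 came without the left E16 tooth of embryo 3, and without any other tooth at most 7322 were called in HTSeq, 2965 rose, 2241 fell, and 6 were opposite. Without the left E16 tooth of embryo 6, 2 were opposite. In all 14 such fits 2601 genes rose and 1780 fell. Of the 703 values of 402 named genes, 587 kept their call in every alternative other than the block. The effect of depth was not tested; Dkk4 had 2 counts over all E13 teeth and Cnfn none, so their level at E13 could not be measured.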
